A study of Mus musculus with 4 samples.

Results

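Of the 2175 HOXA5-FLAG peaks found in both immunoprecipitates, 523 were narrow peaks that flanked a protein-coding gene. A member overlapped between the replicate lists by at least 1 bp, was at most 1000 bp long in each list and lay on chromosomes 1 to 19 or X. Its replicate 1 summit, the base of highest signal, was outside every protein-coding gene of RefSeq but at most 100 kb from the nearest. Among the 1630 narrow shared peaks on these chromosomes, 690 lay inside a protein-coding gene and 417 lay farther than 100 kb from one, in what is called a gene desert here. Every member joined exactly 1 row of each list, and all 523 were used. Members were thus chosen by the measured overlap, length and distance to genes, which are given below as descriptions only.

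The data came from lungs of E15.5 mouse embryos of genotype Hoxa5FLAG/FLAG, in which both alleles of Hoxa5 carry a FLAG epitope. Chromatin was immunoprecipitated with an antibody to FLAG in 2 replicates, and no untagged embryo is among the samples, so binding of the antibody to other targets cannot be told apart from HOXA5 binding. The sample titles read wt while the genotype field names the tagged allele, and nothing in the labels says whether the replicates came from separate litters. Whole lung was used, so the cell type in which a site was occupied is not known. The other 2 of the 4 samples are inputs, which were not analysed here.

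HOX proteins are homeodomain transcription factors that pattern the body axis, and HOXA5 is needed in the lung mesenchyme for normal airway and lung formation. The homeodomain alone reads a short AT-rich sequence. Together with PBX and MEIS proteins, which belong to the TALE class of homeodomain cofactors, HOX proteins read longer composite sites. Such sites can lie in distal enhancers between genes as well as in promoters.

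RefSeq promoter sequences of the matching build (GRCm38.p6, which is mm10) covered 17274 of the 21523 protein-coding genes, in windows from 250 bases before to 50 after a start site. Of the 523 members, 11 touched such a window of a coding or noncoding gene, and 5 had their replicate 1 summit in it. Those at Ss18l2, Actn4, Rtn4 and Exoc1 are promoters of protein-coding genes, and Gm35252 is a noncoding gene whose nearest coding gene is Ino80d. The bases around these summits are shown because only at these members could the sequence at the replicate 1 summit be read. Each runs 5′ to 3′ in the direction of its gene and stops before the start site. Capitals mark TGATNNAT, the composite site of PBX and HOX proteins, on either strand.
Ss18l2, chr9:121710139-121710253, plus strand: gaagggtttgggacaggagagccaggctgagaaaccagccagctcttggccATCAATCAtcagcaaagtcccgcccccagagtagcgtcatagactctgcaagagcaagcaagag
Actn4, chr7:28962440-28962560, minus strand: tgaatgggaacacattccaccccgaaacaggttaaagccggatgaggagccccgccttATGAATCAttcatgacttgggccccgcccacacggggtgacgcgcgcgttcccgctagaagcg
Rtn4, chr11:29692774-29692894, plus strand: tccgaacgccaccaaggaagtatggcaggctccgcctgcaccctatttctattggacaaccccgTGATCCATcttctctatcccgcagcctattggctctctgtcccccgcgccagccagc
Exoc1, chr5:76529151-76529271, plus strand: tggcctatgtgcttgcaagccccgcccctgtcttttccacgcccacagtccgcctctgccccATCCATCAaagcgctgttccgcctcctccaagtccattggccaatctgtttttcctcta
Gm35252, chr1:62956654-62956774, minus strand: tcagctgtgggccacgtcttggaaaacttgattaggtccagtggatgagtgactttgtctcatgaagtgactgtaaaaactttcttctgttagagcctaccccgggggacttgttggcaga

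All 4 coding promoters held TGATNNAT within 10 bases of the replicate 1 summit. At Ss18l2 and Actn4 the summit of replicate 1 fell on the match itself, and at Rtn4 and Exoc1 it was 4 and 2 bases away. The replicate 2 summits were 0, 3, 9 and 23 bases from the match at Ss18l2, Actn4, Rtn4 and Exoc1. The Gm35252 window held no match. Of all 32620 RefSeq promoter windows, 8.79% held TGATNNAT anywhere on either strand. A match within 10 bases of the same window positions was present in 0.950% of them. These are descriptions of a few windows, and a match of letters does not make a bound site.

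The other motifs searched in the windows were TAATTA, a homeodomain site, and TGACAG, a MEIS site, each on both strands. Neither lies wholly within TGATNNAT, although matches can overlap it in part. None of the 5 windows that held a replicate 1 summit had TAATTA, which was in 5.25% of all windows. Of these 5 windows, TGACAG was in those of Ss18l2 and Gm35252, 214 and 151 bases from the replicate 1 summit, and in 18.9% of all windows. Narrow shared peaks inside genes or in deserts that had a summit in a RefSeq window held TGATNNAT in 5 of 8 and 3 of 5 cases, and within 10 bases of the summit in 4 and 2. Over the 3 position classes that was 12 of 18 windows, and 10 of 18 within 10 bases, so the match was not particular to the flanking peaks.

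The enrichment at these promoters was moderate and was present in both lists. Fold enrichment, which is the authors' value for a peak within its own list, was 8.66 in replicate 1 and 7.19 in replicate 2 at Ss18l2 (chromosome 9, 121709984 to 121710420). At Actn4, which encodes an actin cross-linking protein, it was 6.89 and 5.94 (chromosome 7, 28962298 to 28962666). Rtn4 encodes the neurite growth inhibitor Nogo, and its peak had 7.89 and 3.47 (chromosome 11, 29692629 to 29693006). At Exoc1, which encodes a subunit of the exocyst complex of vesicle tethering, it was 5.37 and 4.41 (chromosome 5, 76529065 to 76529368). The peak at Gm35252 was stronger, with 11.2 and 6.22 (chromosome 1, 62956439 to 62957280). Replicate 1 was the higher value at each of these 5 members.

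**Figure D1:**
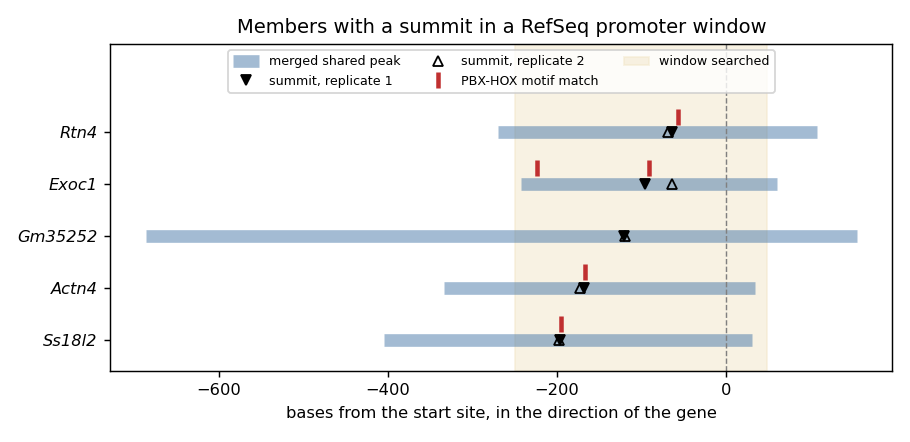
Position of the 5 members whose replicate 1 summit lies in a RefSeq promoter window, in bases from the start site along the gene; thick lines are the merged peaks, filled and open triangles the summits of replicates 1 and 2, red marks the PBX-HOX matches and the shaded area the window searched. The red mark sits at the replicate 1 summit at Rtn4, Exoc1, Actn4 and Ss18l2, Exoc1 has a match farther upstream as well, and Gm35252 has none.

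Members varied widely in enrichment, and the order of their folds was similar in the replicates. The replicate 1 fold ranged from 1.35 to 42.8 with a median of 4.94, and the replicate 2 fold from 1.25 to 21.2 with a median of 3.74. The replicate 1 value divided by the replicate 2 value had a median of 1.33 and ranged from 0.609 to 3.66, and 99 members had the higher value in replicate 2. The lists were called separately, so no change between replicates is read from these ratios. Across the 523 members Spearman's rho between both folds was 0.847, which is a description across peaks that were called in the same libraries. Of the 52 members with the highest fold in each list, 38 were the same members.

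A replicate 1 fold of at least 10 was found in 80 members (15.3%, 95% Wilson interval 12.5 to 18.6), against 14.8% of all narrow shared peaks. A replicate 2 fold of at least 5 was found in 125 (23.9%, 20.4 to 27.7), against 24.4% of all narrow shared peaks. Both shares of the members were thus near those of the whole class. Both cuts were passed by 69 members, which is 86.3% of the 80. At the low end of fold, 86 members were below 3-fold in replicate 1 and 125 were below 3-fold in replicate 2. Shares of all narrow shared peaks were not computed for the low end or for both cuts together. These counts are therefore not read as a trait of the members. The lower quartile of the replicate 1 fold was 3.46 in members, 3.65 inside genes and 3.32 in deserts. A low fold did not always go with a low −log10 q, the authors' significance. The member near Gm14496 had 1.57- and 1.25-fold enrichment with a −log10 q of 46.0 and 11.1, and the cause was not tested. The read depth behind these folds is unknown.

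**Figure D2:**
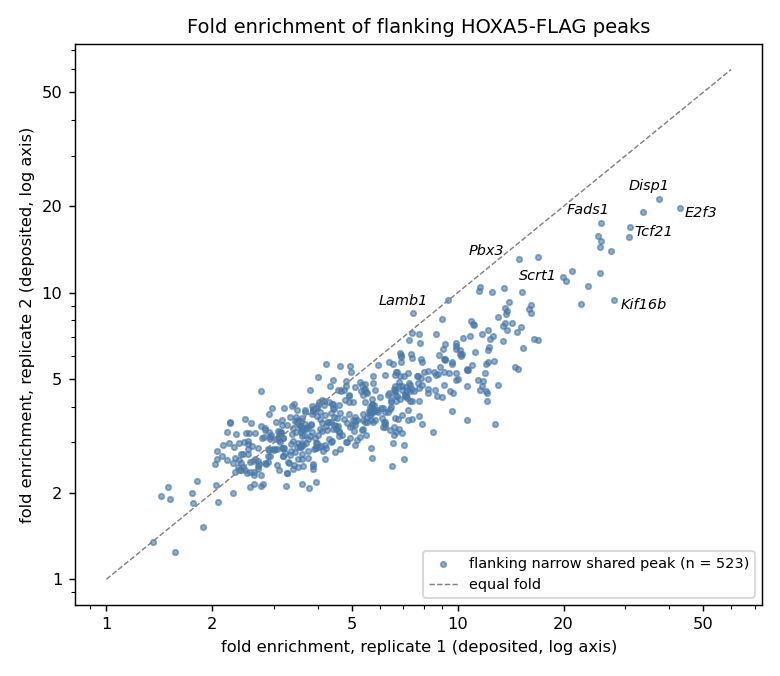
Deposited fold enrichment of each of the 523 members in replicate 1 (horizontal) and replicate 2 (vertical), both on log axes; the dashed line marks equal fold, and 8 members are named by their nearest gene. E2f3 and Disp1 lie at the upper end in both lists, most members lie under the line, and Lamb1 lies above it.

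Replicate summits coincided closely, although the overlap and the length limit of the rule bound how far apart they can be. The median distance between the summits was 20 bp, with quartiles of 6 and 59.5 bp, and 20 members had the same summit base in both lists. Summits lay within 10 bp in 190 members (36.3%) and within 100 bp in 439 (83.9%, Wilson interval 80.5 to 86.8), against 82.9% of all narrow shared peaks. In the 80 members of at least 10-fold in replicate 1 the widest gap was 75 bp, and in the 16 of at least 20-fold it was 14 bp. The 18 members with summits over 300 bp apart had a median fold of 3.04 in replicate 1 and at most 8.21, whereas the median was 5.65 for the 439 within 100 bp.

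**Figure D3:**
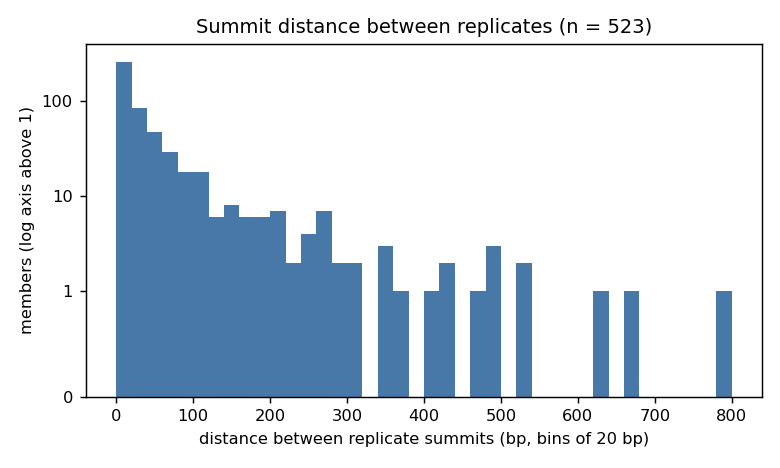
Number of members by the distance between their replicate summits, in bins of 20 bp with a log axis above 1. Most of the 523 members are in the first bins, and 18 lie beyond 300 bp.

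The most enriched members lay at a wide range of distances from their genes. The 16 members of at least 20-fold in replicate 1 had replicate 2 folds from 9.10 to 21.2, lengths of 521 to 684 bp in replicate 1 and distances of 1.61 to 99.9 kb, with a median of 20.0 kb. Members below are named by the nearest protein-coding gene, which is a position and not a shown target.

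The best mean rank of −log10 q belonged to a peak on the 5′ side of E2f3, a cell cycle transcription factor gene, 62.6 kb away (chromosome 13, 30048313 to 30048980). Its fold was 42.8 in replicate 1 and 19.7 in replicate 2, with summits 2 bp apart and a −log10 q of 630 and 235. The next gene, Mboat1, was 87.8 kb away. A second member lay 2262 bp from it, with only 4.19- and 2.94-fold enrichment, so peaks of very different size stood side by side. The same held at Disp1, whose product releases hedgehog ligands from the cells that make them. There the peak 13.6 kb beyond the 3′ end (37.3 and 21.2) had a weaker neighbour 11.0 kb from the gene (5.53 and 3.53, chromosome 1, 183075132 to 183075594).

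Tcf21 encodes a basic helix-loop-helix factor of the lung mesenchyme, and its peak was the farthest from its gene of all members, at 99.891 kb on the 5′ side. No other coding gene was within 100 kb of it, the next being Eya4 at 183 kb. Fold was 30.9 in replicate 1 and 17.0 in replicate 2. A peak 51.0 kb on the 5′ side of Sfswap, a splicing regulator gene, had 30.7 and 15.6 (chromosome 5, 129449855 to 129450538). Another lay 73.3 kb beyond the 3′ end of Kif16b, a kinesin gene of endosome transport, with 27.9 and 9.45 (chromosome 2, 142544715 to 142545388). Both had no second coding gene within 100 kb, and replicate 1 was higher at each.

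Other members of high rank were closer to their genes. A peak 5.91 kb from Fads1, a fatty acid desaturase gene, lay within the noncoding gene Gm50359 and had 25.5- and 17.5-fold enrichment (chromosome 19, 10176672 to 10177313). A peak 1.61 kb beyond the 3′ end of Plppr2 had 25.6 and 15.1 (chromosome 9, 21950232 to 21950752), in a gene-dense stretch with 11 coding genes within 100 kb. The water channel gene Aqp1 had a peak 7.15 kb beyond its 3′ end with 23.5 and 10.6 (chromosome 6, 55355429 to 55355989). Scrt1 encodes a zinc finger repressor of the Snail family, and its direction was not known here, so the side of its peak is not given. The peak lay 156 bp outside the gene with 19.9 and 11.4 (chromosome 15, 76521986 to 76522464), and 13 coding genes lay within 100 kb of it. That was the highest fold among the 16 members within 1 kb of a gene.

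Among adhesion and matrix genes in the top 20, Thbs1 encodes the matrix glycoprotein thrombospondin 1, and a peak 72.5 kb from it had 21.1- and 11.9-fold enrichment (chromosome 2, 118039083 to 118039713). A peak 29.8 kb from the vascular adhesion molecule gene Vcam1 had 20.4 and 11.0 (chromosome 3, 116080048 to 116080653). The remaining named genes of this rank were Maip1 at 42.9 kb (25.4 and 11.7), Samd5 at 22.4 kb (22.4 and 9.10), the importin gene Kpna2 at 18.6 kb (16.2 and 8.51) and Gm30447 at 11.9 kb (25.4 and 14.5). Assignment was close to a tie at Gm30447, since Herc1 was 11.943 kb away against 11.856 kb. It was close as well at the potassium channel gene Kcnk9, 20.1 kb from a peak of 16.9 and 13.3 that had Trappc9 at 20.9 kb. The replicate 1 fold was the higher in all 20 members of best rank.

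Gm6713, Gm6721 and Gm5174 on chromosome 10, annotated in RefSeq as protein-coding and near-identical in their promoter windows, accounted for 3 of these 20. Peaks lay on the 5′ side of each, 17648 bp from Gm6713 (27.3- and 14.0-fold), 17630 bp from Gm6721 (25.04 and 15.8) and 14953 bp from Gm5174 (33.7 and 19.1). Their summits were 4, 1 and 0 bp apart between replicates. The distance to the start site of the RefSeq window was 17742, 17630 and 15319 bp. A stretch before each start site, from 150 bases upstream, shows how alike the copies are, with capitals at the 4 positions that differ among the 3.
Gm6713, chr10:85710906-85711055, minus strand: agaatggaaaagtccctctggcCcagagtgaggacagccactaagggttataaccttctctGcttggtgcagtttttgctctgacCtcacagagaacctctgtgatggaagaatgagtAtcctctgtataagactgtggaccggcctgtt
Gm6721, chr10:85807526-85807675, plus strand: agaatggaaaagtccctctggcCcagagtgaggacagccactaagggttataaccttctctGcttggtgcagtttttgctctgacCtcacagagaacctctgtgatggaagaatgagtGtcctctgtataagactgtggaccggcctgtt
Gm5174, chr10:86655656-86655805, plus strand: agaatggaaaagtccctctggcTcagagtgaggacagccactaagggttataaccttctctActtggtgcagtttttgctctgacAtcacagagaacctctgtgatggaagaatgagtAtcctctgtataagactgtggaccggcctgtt
Over the full 300-base windows, Gm6713 and Gm6721 had 298 identical bases, Gm5174 and Gm6713 had 297, and Gm5174 and Gm6721 had 295. The window of a further gene, Gm6729 on the same chromosome, had 299 bases in common with that of Gm6713, yet neither list had a peak summit within 50 kb of it. How reads that match more than 1 copy were placed is not given in the sources used here. The sequence under the peaks themselves was not compared, because only promoter windows were at hand. The 3 peaks may share reads, which was not tested, and are uncertain as separate sites. Without them the shares of strong members changed little, as given in the closing section.

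Members were spread over the flanks of genes with no concentration at gene ends. The distance to the nearest protein-coding gene ran from 9 bp to 99.891 kb with a median of 25886 bp. Within 10 kb lay 122 of the 522 members placed between the outermost genes of their chromosome (23.4%, Wilson interval 19.9 to 27.2), whereas 30.2% of the bases between genes and within 100 kb of one were that close. The 10 to 50 kb range held 252 members (48.3%, 44.0 to 52.6) against 45.5% of bases, and 50 to 100 kb held 148 (28.4%, 24.7 to 32.4) against 24.3%. Distance was part of the rule and assembly gaps count among the bases, so these shares are not tested.

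**Figure D4:**
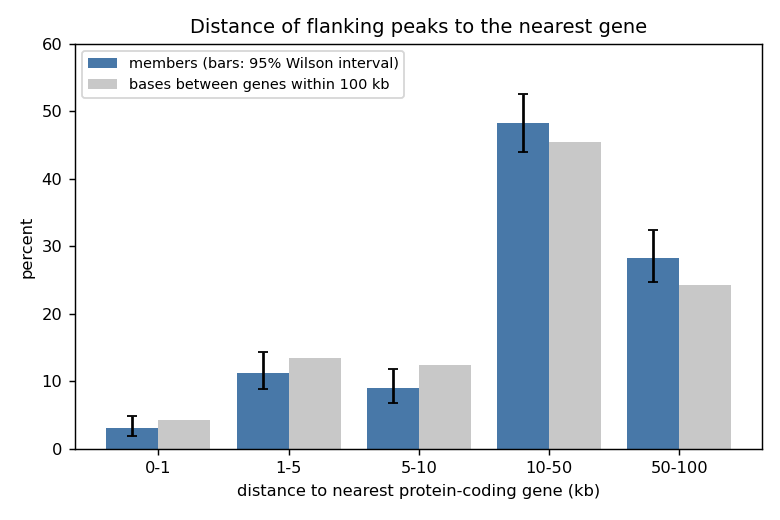
Percent of 522 members (blue, with 95% Wilson intervals) and of bases between protein-coding genes and within 100 kb of one (grey), by distance to the nearest gene. Members are below the bases up to 10 kb (23.4% against 30.2%) and above them from 10 kb on.

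The median enrichment was slightly lower farther from genes, a difference that was not tested. The median replicate 1 fold was 5.94 in the 16 members within 1 kb, 5.34 in the 106 at 1 to 10 kb, 4.76 in the 253 at 10 to 50 kb and 4.62 in the 148 beyond. In replicate 2 the medians were 4.11, 3.81, 3.72 and 3.68. The share of at least 10-fold in replicate 1 was 12.5%, 13.2%, 18.2% and 12.2% in these ranges, with intervals that overlapped.

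The members were evenly divided between the sides of genes. Gene direction was known for 394 members, of which 200 were on the 5′ side of the nearest gene (50.8%, Wilson interval 45.8 to 55.7) and 194 on the 3′ side. Of the bases in flanks of known side, 53.7% were on the 5′ side. The 5′ share was 7 of 14 within 1 kb, 41 of 80 from 1 to 10 kb, 94 of 187 from 10 to 50 kb and 58 of 113 beyond.

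The members closest to a gene end were at Dtd1, Rtn4, Exoc1, Tbc1d1 and Gng11. The peak nearest to a gene lay 9 bp beyond the 3′ end of Dtd1, which encodes an enzyme that removes D-amino acids from tRNA, and was weak (3.15 and 3.26; chromosome 2, 144768522 to 144768963). Its replicate summits were 121 bp apart, so the distance of 9 bp holds for the replicate 1 summit only. A stronger member of Dtd1 was 1039 bp from it, 1.05 kb beyond the 3′ end (11.1 and 7.76). At Tbc1d1, a Rab GTPase-activating protein gene, the summit was 128 bp before the gene and the peak reached 12.3 and 6.48 (chromosome 5, 64155933 to 64156511). At Gng11, which encodes a G protein gamma subunit, it was 132 bp away with 6.65 and 4.55 (chromosome 6, 4008358 to 4008817).

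Many members had more than 1 possible gene. The number of coding genes within 100 kb had a median of 2 and reached 13, and it was 1 for 222 members (42.4%). For 92 members (17.6%) the second gene was less than 1.5 times as far as the nearest. Summits of 101 members (19.3%) lay in a noncoding gene, spread over 100 such genes, of which 5 held more than 1 member. Another narrow shared peak was within 10 kb of 25 members (4.78%) and within 50 kb of 68 (13.0%). The same shares over all narrow shared peaks were not computed, so the spacing is given as a description only.

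The 523 members were assigned to 484 protein-coding genes, 33 of them with 2 members and 3 with 3. Cd47 encodes the cell surface signal that restrains phagocytosis, and its 3 members lay 38.9 to 41.6 kb beyond the 3′ end, all within the noncoding gene Gm5486. Their folds were 6.79 and 4.86 (chromosome 16, 49951234 to 49951746), 3.59 and 3.55 (49951990 to 49952530), and 6.62 and 4.40 (49953951 to 49954301). This was the tightest of the 3 groups, with 776 bp between the first summits. Hmgcll1, whose product resembles the enzyme HMG-CoA lyase, had members 7.17, 25.003 and 55.6 kb from its 5′ end, with replicate 1 folds of 4.63, 13.8 and 5.53 and replicate 2 folds of 5.53, 8.62 and 3.68. The second gene of all 3 was Bmp5, a bone morphogenetic protein gene, and at the farthest it was nearly as close (58.8 kb). Gm30733 had members on both sides, 39.7 kb beyond the 3′ end (6.90 and 6.04) and 19.03 and 52.2 kb from the 5′ end (4.21 and 2.86, and 4.31 and 3.55).

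Lists of pathway and cell type genes were then read for a flanking member. Of all 21523 protein-coding genes, 2.25% had one. Of the 455 different genes on the 18 lists, 33 had one, in 14 lists. A gene with long flanks can be assigned more peaks, and the lists were not matched for this, so a share above 2.25% is not a result about a list.

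Among Hox genes, 2 of 39 had a member. The Hoxa2 member, 2.02 kb on its 5′ side in the noncoding gene Hoxaas2, had 4.97 and 5.29, with Hoxa3 at 2.21 kb. Replicate 2 was the higher value there.

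Of 9 TALE cofactor genes, 2 had a member. Pbx3, which encodes a DNA-binding partner of HOX proteins, had the stronger, 80.7 kb away in the noncoding gene C230014O12Rik (14.9 and 13.1; chromosome 2, 34090551 to 34090996). The Meis1 member, 5.73 kb beyond the 3′ end in 8430419K02Rik, had 4.63 and 2.85, with a −log10 q of 4.49 in replicate 2.

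Mesenchymal transcription factor genes had a member in 2 of 29 cases, Tcf21 and Foxf2. Foxf2 encodes a forkhead factor of mesenchyme, and its peak lay 6.77 kb on the 5′ side with 4.50 and 3.42 (chromosome 13, 31618888 to 31619230). Disp1 was the single gene with a member among 15 of hedgehog signalling, so 1 of 15.

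Growth factor pathway lists are read beside the 2.25% of all protein-coding genes. In the FGF list 2 of 19 had a member. Fgf10, the mesenchymal ligand that drives airway branching, had one 35.2 kb on its 5′ side with 12.2 and 7.41 and identical summits in both replicates, and Etv4, an ETS factor gene induced by FGF signalling, had one at 5.93 kb (5.02 and 3.601). Of 37 genes of BMP and TGF-beta signalling, 3 had a member. Smad3 encodes a transducer of TGF-beta signals (10.7 and 5.38 at 31.5 kb on the 5′ side). Ltbp1, which encodes a binding protein of latent TGF-beta, had one at 7.10 kb (4.61 and 3.16), and Smad2 one at 52.6 kb (2.63 and 2.15). Of 19 retinoic acid genes, 1 had a member, Aldh1a2, which encodes a retinoic acid synthesis enzyme (3.21 and 2.87 at 19.4 kb). None of the 41 Wnt pathway genes or 22 Notch pathway genes listed did, which beside 2.25% is not read as a lack. The Wnt list does not hold every Wnt ligand gene, and Wnt10a, which is not on it and was singled out after its values were seen, had a member at 4.22 kb (5.35 and 3.32; chromosome 1, 74808234 to 74808535).

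Axon guidance genes, many of which also steer vessels and airways, had a member in 7 of 42 cases. Robo2, a receptor of Slit ligands, had one 95.2 kb beyond its 3′ end (13.7 and 8.41; chromosome 16, 73796478 to 73797387). Nrp2, a coreceptor of semaphorins and VEGF, had one 20.8 kb on the 5′ side (10.2 and 6.13; chromosome 1, 62682367 to 62682954). Epha7, an ephrin receptor gene, had one at 31.1 kb (5.61 and 3.82), and the semaphorin gene Sema3c had one at 18.5 kb (3.38 and 4.03). The first pair passed 10-fold in replicate 1 and the second did not. The list does not hold every guidance gene. Epha8 and Neo1, which are not on it and were singled out after their values were seen, each had a member. That of the ephrin receptor gene Epha8 lay 4.70 kb beyond its 3′ end (13.6 and 10.4), and that of Neo1 93.3 kb on its 5′ side (3.95 and 3.95).

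Extracellular matrix genes on the list had a member in 5 of 41 cases. The list does not hold every matrix gene, and Thbs1, named above for its rank, is not on it. Col6a3, a chain of microfibrillar collagen VI, had 13.5 and 7.63 at 33.0 kb on its 5′ side, and the basement membrane gene Nid2 had 11.4 and 4.97 at 22.4 kb. Lamb1, a laminin chain, was higher in replicate 2 (7.44 and 8.51 at 73.8 kb; chromosome 12, 31191170 to 31191660). Fbln1, a fibulin of elastic fibres and basement membranes, had 6.18 and 3.54 at 4.78 kb.

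The cell type lists are likewise read beside the 2.25% of all protein-coding genes. Of 16 smooth muscle genes 1 had one, the integrin gene Itga8 (11.7 and 4.72 at 15.3 kb on the 5′ side; chromosome 2, 12317071 to 12317601). Of 20 cartilage genes 1 did, Sox6, a chondrocyte factor gene with peaks 60.1 and 91.1 kb beyond its 3′ end (5.00 and 3.46, and 3.44 and 3.57). In the lung epithelium list 4 of 40 genes did. These were Foxp1, a forkhead repressor gene (10.6 and 5.41 at 78.8 kb beyond the 3′ end), Etv4, and the Iroquois genes Irx5 (4.12 and 4.22 at 45.4 kb) and Irx1 (3.51 and 2.98 at 12.2 kb). Of 23 genes of neurons and glia 1 did, Foxd3, a neural crest factor gene (12.0 and 4.55 at 81.9 kb). Of 20 blood cell genes 2 did, among them Kit, a stem cell factor receptor gene (3.26 and 2.35 at 30.1 kb). No gene of the endothelium (22) or mesothelium (9) list had a member, but lists this short are not read as lacking members.

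Finally the flanking peaks were compared with narrow shared peaks inside genes and in deserts, on measures the rule did not use directly. The overlap and length limits do bound the summit distance, in each class alike. None of the 7 differences passed Fisher's exact test (two-sided, Benjamini-Hochberg adjusted over the 7), which treats peaks as independent and does not cover variation between embryos. A replicate 1 fold of at least 10 was found in 15.3% of flanking peaks, 16.7% of peaks inside genes and 11.0% of desert peaks. The difference from genes was −1.37 percentage points (95% Newcombe interval −5.47 to 2.86, adjusted p = 0.617 by Fisher's exact test). From deserts it was 4.27 points (−0.136 to 8.53, adjusted p = 0.334 by Fisher's exact test). A replicate 2 fold of at least 5 was found in 23.9%, 27.0% and 20.6%, with differences of −3.06 points from genes (−7.93 to 1.93) and 3.28 from deserts (−2.12 to 8.54; adjusted p = 0.334 for each by Fisher's exact test). The flanking value lay between those of the other classes in each list, without a difference that passed.

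Summits within 100 bp were found in 83.9% of flanking peaks, 83.5% of those inside genes and 80.6% of desert peaks. The differences were 0.461 points (−3.80 to 4.60, adjusted p = 0.875 by Fisher's exact test) and 3.36 points (−1.52 to 8.36, adjusted p = 0.334 by the same test). A noncoding gene held the summit of 19.3% of flanking and 16.1% of desert peaks (difference 3.24 points, −1.72 to 8.07, adjusted p = 0.334 by Fisher's exact test). The share of bases that noncoding genes cover was not computed for flanks or deserts. Peak placement therefore cannot be told apart from annotation density here. With the replicate 1 list alone this last difference was 4.28 points and passed (adjusted p = 0.0298, Fisher's exact test), and with the replicate 2 list alone it was 0.136 points. The intervals do not show that the classes were alike.

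**Figure D5:**
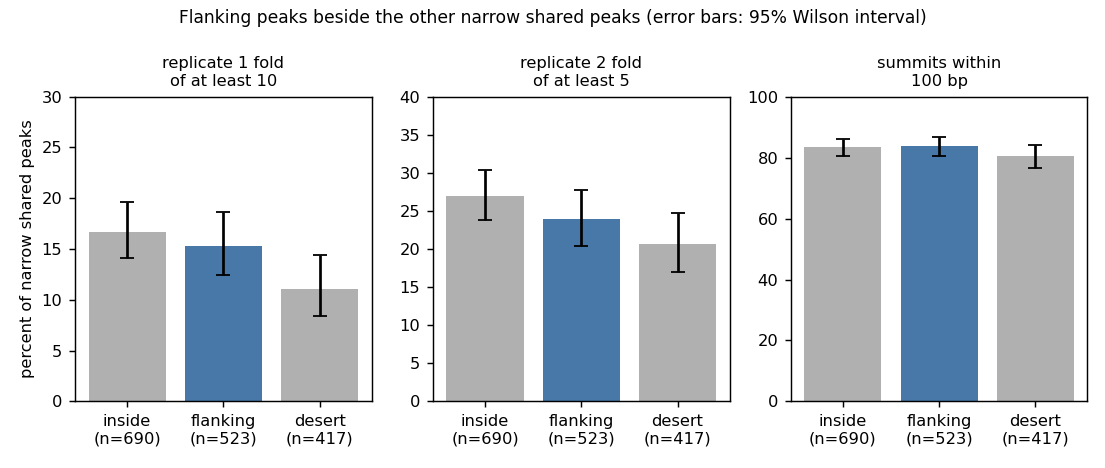
Percent of narrow shared peaks inside genes, flanking genes and in gene deserts with a replicate 1 fold of at least 10, a replicate 2 fold of at least 5, and summits within 100 bp; error bars are 95% Wilson intervals. The flanking class is between the others for both folds (15.3% and 23.9%), and the intervals of all classes overlap.

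Peaks just inside and just outside the limits are given without a test. The farthest member, at Tcf21, was followed by a desert peak 100.338 kb from Slc27a6 with 4.02- and 2.95-fold enrichment. The longest member, 64.6 kb from Cog6, had a row of 999 bp and folds of 2.48 and 2.41, and the shortest peak over the limit outside a gene had a row of 1004 bp, 3.62 kb from Slc18b1, with 2.56 and 2.16.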

How the data were processed

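Each immunoprecipitate has its own peak list, deposited by the authors. The submitters' processing notes name mm10 as the build and MACS3 3.0.1, Bowtie2 2.5.2 and bedtools 2.31.0 among the tools, beside SAMtools 1.18, FastQC 0.12.1, deepTools and Trim Galore. For settings, control and filters the sources used here give nothing. The deposited fold is a ratio over local background at the summit, and the deposited −log10 q is the authors' significance of the same base. The deposited score repeats −log10 q and was not used, and the depth is unknown.

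Rows of the lists overlapping by at least 1 bp were merged and placed at the replicate 1 summit (Python 3.11.15, pandas 2.3.3). Genes came from the RefSeq table of GRCm38.p6, leaving out those starting below 3 Mb. That left 21523 protein-coding and 27691 noncoding genes. Gene direction and promoter sequences came from the RefSeq promoter table of the same build. No genome sequence was used, so the planned motif comparison around all summits was not run. Merging and placement were tested on simulated peaks. Shares carry 95% Wilson intervals and cover counting error only. Class differences were tested by Fisher's exact test (scipy 1.17.1) with Newcombe intervals (statsmodels 0.14.6), and 11 alternatives were tried.

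Named genes are the nearest to the 20 members of best mean −log10 q rank, up to 4 per gene list by that rank, those with 3 or more members, those of the 5 members nearest to a gene, and those at the limits. Genes with a summit in a promoter window, the chromosome 10 copies, second-nearest genes, Wnt10a, Epha8, Neo1 and Gm14496 were added after their values were seen. The members and lists were chosen with earlier results of these data known. Some genes that the naming rule selects are not reported here.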

Additional observations from a re-analysis of the deposited data

How the results depend on the processing

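Alternatives were other overlap, q, length and distance limits, all RefSeq genes, the replicate 2 summit, each list alone, and, chosen after seeing the data, leaving out the 3 chromosome 10 copies. With rows of at most 500 bp, members numbered 276 and their genes 264. Leaving out each replicate gave 747 and 1223 members and 676 and 1051 genes. The share within 10 kb was 32.5% with a limit of 50 kb, 17.9% with 200 kb and 35.6% with all genes, where the limit or the gene set itself changes the share, and 24.2% to 24.3% with single lists.

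None of the 7 class differences passed under any alternative except the noncoding share with replicate 2 left out (4.28 points, 0.136 with replicate 1 left out). In that alternative the adjustment covered fewer than 7 differences, since a single list does not allow all of them. The summit difference changed sign, never passing. Against genes it was −1.34 points with the 500 bp limit, −2.26 with 2000 bp, −1.08 with 50 kb and −2.39 with all genes. Against deserts it was −1.84 with 500 bp, −0.0779 with 50 kb and −3.99 with all genes. The cause was not tested. For single lists the fold differences were −0.442 and 1.66 points in replicate 1 and −2.30 and 2.36 in replicate 2, and summit differences could not be computed. Without the chromosome 10 copies the differences in strong members were −1.86 and 3.78 points in replicate 1 and −3.50 and 2.84 in replicate 2.

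Of 64 named members, 58 were kept with −log10 q of at least 5, and those lost included Cog6, Kit, Meis1, Smad2 and 1 of Gm30733. Reciprocal overlap kept 63, not that of Meis1. Members of high rank were lost under other settings. The 500 bp limit kept 27, without the peaks at E2f3 and Tcf21 and the stronger one at Disp1. The 50 kb limit kept 46, without those at E2f3, Tcf21 and Pbx3. All RefSeq genes kept 52, without those at Fads1, Pbx3 and Thbs1. Peaks with low depth may be missing from either list, since depth is unknown. No paired analysis was possible because peak lists of only 1 group were used.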
